A study of Mus musculus with 2 samples.

Results

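The genes described here are 10 enzymes and oxidase components of macrophage itaconate, nitric oxide, arginine and superoxide metabolism. They are Acod1, Nos2, Arg1, Arg2, Ass1, Gch1, Odc1, Sdha, Idh1 and Cybb, chosen by name from what they are known to do. The choice was made with earlier results of these data known. All 10 were found among 55450 genes with a linked symbol, of which 21938 were nuclear-encoded protein-coding genes. The data are total RNA sequencing, after ribosomal RNA depletion, of 2 libraries that form 1 group. The cells were mouse C57BL/6J macrophages grown from bone marrow (BMDM) and given Lipid A at 100 ng/ml for 120 min. Lipid A is the membrane anchor of bacterial lipopolysaccharide and acts through the receptor Tlr4. The RNA came from the nucleoplasmic fraction of the cells, and a label field gives that fraction only as nucleus. The libraries are biological replicates 1 and 2, made from 1 µg and 500 ng of RNA, so that input and replicate cannot be told apart. Both have separate biosample entries and the same donor entry, and the age and sex of the animals are not given. No untreated cells, other time or cytoplasmic RNA were analysed here, so each value is a level in stimulated nuclei and not an induction.

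Activated macrophages divert the tricarboxylic acid cycle: the enzyme made from Acod1 converts the cycle intermediate cis-aconitate to itaconate, and itaconate inhibits succinate dehydrogenase, whose catalytic subunit is Sdha. Arginine is shared between competing enzymes. The inducible synthase Nos2 makes nitric oxide and citrulline from it with the cofactor tetrahydrobiopterin, while the arginases Arg1 and Arg2 split it to urea and ornithine, from which Odc1 starts polyamine synthesis. Cybb is the catalytic subunit of the phagocyte NADPH oxidase, which makes superoxide.

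Replicate 1 had 14374739 estimated gene counts and replicate 2 had 16372797. Levels are given as TPM, a transcript abundance that divides by transcript length and scales each library to 1 total. The nuclear-encoded protein-coding genes together took 72.5% and 67.0% of counts in replicates 1 and 2 but 29.8% and 20.8% of TPM, and mitochondrial genes held 0.424% and 8.70% of counts. All 8 macrophage markers were at 1 TPM or more in both libraries, led by Lyz2 at 402.73 TPM in replicate 1 and 1315.68 in replicate 2. Their summed level was 1008 TPM in replicate 1 and 2252 TPM in replicate 2, and 5 of the 8 had a relative log2 ratio, as defined further on, above 1. The 6 stromal markers summed to 4723 counts in replicate 1, led by Col1a1 with 1845, against 15 counts in replicate 2, and Col3a1, Dcn and Lum were at 0 there. Markers of neutrophils, erythroid, T and B cells summed to between 3 and 23.6 counts in replicate 1 and between 2 and 46 in replicate 2, led by Ltf, Alas2, Cd8a and Cd79a. These are gene-table counts, and the read-based table gave the T cell marker Cd3d 8.21 and 7.28 TPM. In bulk RNA, fewer cells of a type and less RNA per cell cannot be told apart. The part of the marker differences between the libraries in the results below was not tested.

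Of the 10 genes, 9 reached 1 TPM or more in both libraries, the exception being Arg1, against 40.5% of nuclear-encoded protein-coding genes. The median of their mean levels was 22.1 TPM, beside 9.06 TPM over the nuclear-encoded protein-coding genes that reached 1 TPM in both. Levels ran over more than 2 orders of magnitude. Cybb and Acod1 stood apart at the top, Gch1, Sdha, Odc1 and Nos2 lay close together below them, and Idh1, Ass1, Arg2 and Arg1 followed. Cybb alone held 50.9% and 55.8% of the counts of the 10 genes in replicates 1 and 2, and Acod1 held 32.8% and 28.4%.

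**Figure D1:**
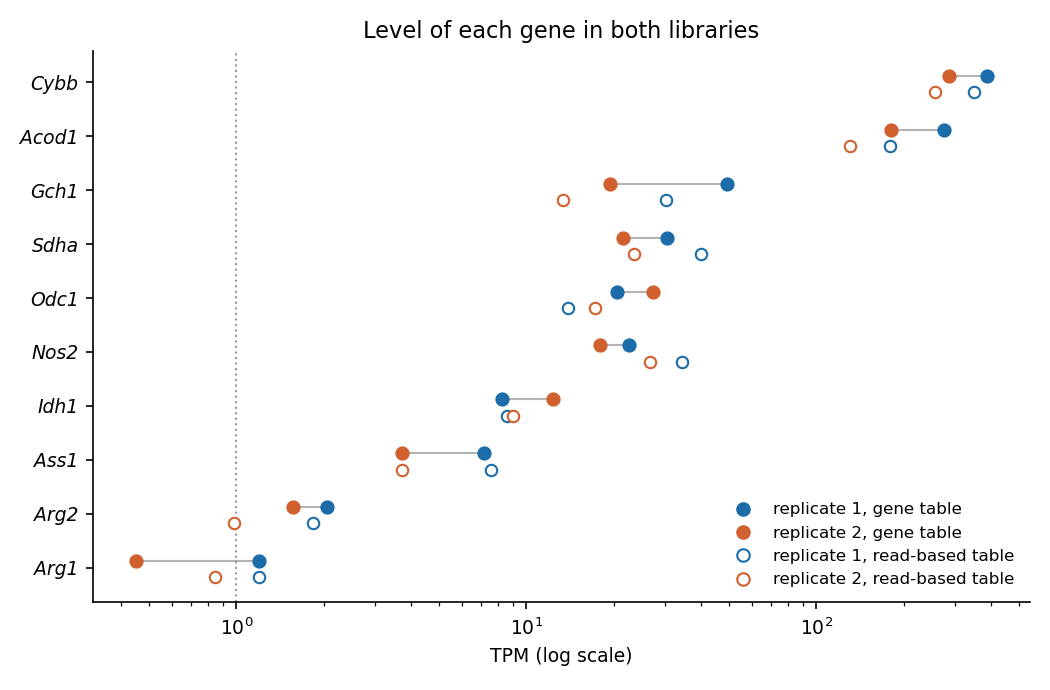
TPM of each of the 10 genes on a log scale, in replicate 1 (blue) and replicate 2 (orange), from the gene table (filled points, joined by a line) and from the read-based transcript table summed by gene (open points). The dotted line marks 1 TPM, and Cybb and Acod1 lie above 100 TPM in both libraries and both tables.

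Acod1 (ENSMUSG00000022126.6, chromosome 14, 103046977 to 103056573 on the plus strand of mm10) was the second highest of the 10. It had 9304 counts and 274.64 TPM in replicate 1, and 9282 counts and 181.62 TPM in replicate 2. Its mean was 228 ± 65.8 TPM (SD, n = 2, here and below), rank 153 of the 21938 nuclear-encoded protein-coding genes. Each SD includes the offset between libraries in the part of TPM that those genes held. With TPM rescaled to the total of those genes, Acod1 was 898 ± 36.8, Cybb 1343 ± 51.8 and Sdha 103 ± 0.551. On that scale Odc1 was 100 ± 43.6 and Idh1 43.5 ± 22.4, so their spread was wider for their level. Acod1 has a single annotated transcript, so its level does not depend on how reads are divided between isoforms. The itaconate-sensitive enzyme subunit Sdha (ENSMUSG00000021577.14, chromosome 13, 74322254 to 74350280, minus strand) had 538 and 794 counts and 30.52 and 21.55 TPM, a mean of 26.0 ± 6.34 TPM and rank 2059. Within a library, Acod1 stood 9.00 times above Sdha in replicate 1 and 8.43 times in replicate 2 by TPM in the gene tables, and 4.47 and 5.59 times in the read-based tables. Those ratios count all Sdha transcripts. Protein-coding Sdha transcripts alone were at 11.72 and 12.64 TPM in the alignment-based transcript tables, and at 7.54 and 8.61 in the read-based tables. Acod1 stood further above these. Idh1 (ENSMUSG00000025950.16, chromosome 1, 65158616 to 65186500, minus strand), which encodes the cytosolic enzyme that turns isocitrate to alpha-ketoglutarate and yields NADPH, had 229 counts in replicate 1, with a 95% Poisson interval of 200.3 to 261. In replicate 2 it had 547 counts, with an interval of 502 to 595. These intervals, which cover counting error only, did not overlap. The Idh1 level was 8.23 and 12.35 TPM, a mean of 10.3 ± 2.91 TPM and rank 4134.

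Nos2 (ENSMUSG00000020826.8, chromosome 11, 78920787 to 78960254, plus strand) was the nitric oxide synthase found in these nuclei. It had 1261 counts and 22.53 TPM in replicate 1, and 1520 counts and 18.00 TPM in replicate 2, a mean of 20.3 ± 3.20 TPM and rank 2549. Of its paralogues, the neuronal synthase Nos1 had 0 counts in both gene tables, a count that leaves room for up to 3, and the endothelial synthase Nos3 had 1 and 0. The read-based table gave Nos1 0.567 and 0.555 TPM, so the tables differ for this gene. Acod1 stood above Nos2 by 12.2 and 10.1 times in the gene tables and by 5.22 and 4.90 times in the read-based tables.

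Gch1 (ENSMUSG00000037580.10, chromosome 14, 47153895 to 47189413, minus strand) encodes GTP cyclohydrolase, which makes the first intermediate of the cofactor that Nos2 needs. It had 2023 counts and 49.21 TPM in replicate 1, and 1189 counts and 19.51 TPM in replicate 2. The unscaled ratio of TPM between the 2 libraries was larger than for any other of the 9 genes above 1 TPM in both. On the relative log2 ratio defined further on, which subtracts the median gene, Idh1 and Odc1 differed more, at 1.12 and 0.97 against -0.71 for Gch1. The mean of Gch1 was 34.4 ± 21 TPM, rank 1547. Gch1 overlaps pseudogenes on both strands: Gm18811 on the same strand held 134 and 73 counts and Gm49134 on the opposite strand held 38 and 20. Whether counting used strand is not given in the sources used here, so reads of overlapping genes cannot be told apart with certainty.

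The arginine enzymes were the lowest of the set. Ass1 (ENSMUSG00000076441.9, chromosome 2, 31470207 to 31520672, plus strand), argininosuccinate synthase, which starts the recycling of citrulline to arginine, had 116 and 94 counts and 7.16 and 3.73 TPM, a mean of 5.45 ± 2.43 TPM. The mitochondrial arginase Arg2 (ENSMUSG00000021125.6, chromosome 12, 79130777 to 79156301, plus strand) had 35.0 and 40.5 counts and 2.05 and 1.57 TPM, a mean of 1.81 ± 0.339 TPM. Arg2 shares its locus with Vti1b on the opposite strand, at 108 and 146 counts, and with the antisense gene Gm48780, at 23 and 12 counts. Arg1 (ENSMUSG00000019987.9, chromosome 10, 24915221 to 24927484, minus strand), the cytosolic arginase of the urea cycle and of alternatively activated macrophages, had 12 counts in replicate 1 and 6 in replicate 2. The 95% Poisson intervals of these counts, 6.20 to 21 and 2.20 to 13.1, overlapped. The Arg1 level was 1.20 and 0.45 TPM, where 3 counts would be 0.300 and 0.225 TPM, so that its level is poorly fixed at this depth. Nos2 was 11.0 and 11.5 times above Arg2 in the gene tables, and 18.8 and 40.0 times above Arg1. In the read-based tables it was 18.7 and 27.3 times above Arg2 and 28.7 and 31.7 times above Arg1. Among the 6 markers of alternative activation, 2 reached 1 TPM in both libraries, namely Mrc1, the mannose receptor, at 148.94 and 179.84 TPM, and Ccl22 at 2.13 and 2.85 TPM. Retnla and Ccl17 had 0 counts in both gene tables, although the read-based table gave Ccl17 1.25 TPM in replicate 1.

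Odc1 (ENSMUSG00000011179.8, chromosome 12, 17544794 to 17551505, plus strand), ornithine decarboxylase, had 384 counts and 20.56 TPM in replicate 1 and 986 counts and 27.26 TPM in replicate 2. Its mean was 23.9 ± 4.74 TPM, rank 2212. The 95% Poisson intervals of its counts, 347 to 424 and 925 to 1050, did not overlap. Nor did those of Nos2, Gch1, Sdha, Idh1 and Cybb, and the intervals are not scaled for library size. Cybb (ENSMUSG00000015340.10, chromosome X, 9435252 to 9487771, minus strand) had 14440 counts and 388.38 TPM in replicate 1 and 18260 counts and 287.41 TPM in replicate 2, a mean of 338 ± 71.4 TPM and rank 78.

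Set in order of mean TPM, 6 of the 9 neighbouring pairs kept their order in both libraries with no overlap of their ranges. Among them was Arg2 over Arg1, where Arg1 rested on 12 and 6 counts and the read-based ratio was 1.53 and 1.16. The pairs Gch1 and Sdha, Sdha and Odc1, and Odc1 and Nos2 did not keep their order. Their ranges overlapped in the gene tables and their order turned between the libraries. Gch1 and Sdha were each above Nos2 in both libraries there. The read-based tables kept an order for these pairs, with Gch1 at 0.757 and 0.571 times Sdha, Sdha at 2.87 and 1.36 times Odc1 and Odc1 at 0.406 and 0.645 times Nos2. Over protein-coding transcripts alone in the alignment-based tables, Sdha was below Nos2 in both libraries, at 11.72 and 12.64 TPM against 22.53 and 18.00. Gch1, at 24.91 and 11.24 TPM there, was above Nos2 in replicate 1 and below it in replicate 2. The order of these 4 genes thus rests on the table used and on which transcripts are summed. Cybb was above Acod1 by 1.41 and 1.58 times in the gene tables and by 1.95 and 1.96 times in the read-based tables. That order rests on which transcripts are summed. Over protein-coding transcripts alone in the alignment-based tables, the ratio of Cybb to Acod1 was 0.737 and 0.964, with Cybb at 202.52 and 175.02 TPM and Acod1 as above. In the read-based tables, protein-coding Cybb transcripts were at 155.1 and 132.8 TPM and Acod1 at 179.7 and 130.9. There Cybb was below Acod1 in replicate 1 and above it in replicate 2.

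The 2 libraries were compared by the relative log2 ratio, the log2 of (TPM + 1) in replicate 2 over (TPM + 1) in replicate 1, less its median of -0.58 over the 12647 genes whose mean TPM was at least 1. For low genes the pseudocount of 1 makes differences look smaller. Over the 9 genes at that level, the median was 0.15, beside 0.06 for nuclear-encoded protein-coding genes, whose quartiles were -0.24 and 0.41. Idh1 had the highest value, 1.12, and was the only 1 of 9 above 1, a size that 5.45% of 9548 nuclear-encoded protein-coding genes exceeded. None of the 9 was below -1, against 1.73% of those genes. Odc1 stood just under 1, at 0.97, and Gch1 was lowest at -0.71. The other 6 lay between -0.20 for Ass1 and 0.34 for Arg2, with Acod1 at -0.01, Nos2 at 0.27, Cybb at 0.15 and Sdha at 0.10. With 1 group of 2 libraries these values describe the replicate spread and have no test.

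**Figure D2:**
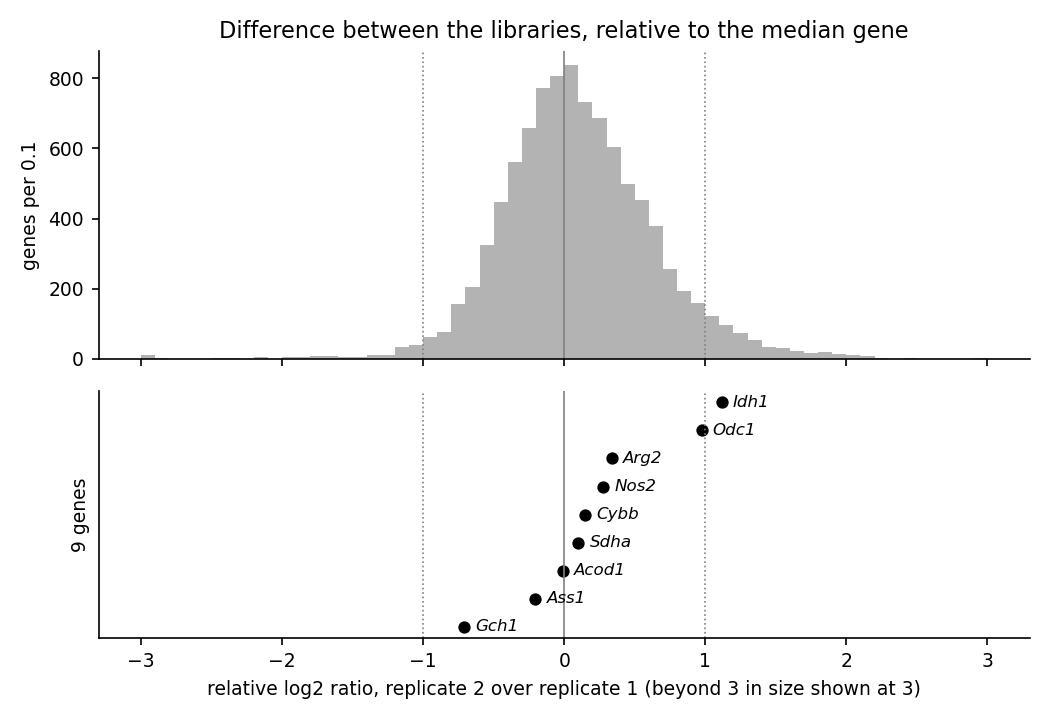
Relative log2 ratio of replicate 2 over replicate 1. The upper panel is a histogram of 9548 nuclear-encoded protein-coding genes with a mean TPM of at least 1, in steps of 0.1, and the lower panel places the 9 genes of the set at that level. Idh1 at 1.12 and Odc1 at 0.97 lie in the right tail, and Gch1 at -0.71 lies left of the bulk.

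The values of Idh1, Odc1 and Sdha depended on the scale used. Normalising the counts with TMM (edgeR's trimmed mean of M-values) gave 1.44 for Odc1 and 1.33 for Idh1, so that both were above 1, while the read-based table gave 0.69 for Idh1. For Odc1, the deposited effective length of the gene, which averages its transcripts by abundance, was 1327 bases in replicate 1 and 1702 in replicate 2. A longer effective length lowers TPM for the same counts. Sdha showed the same feature, at 1252 and 1735 bases. Its relative log2 ratio of 0.10 was 0.64 with TMM and -0.13 in the read-based table, so its sign turned there, and its protein-coding transcripts alone were at 11.72 and 12.64 TPM.

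Transcripts annotated as retained introns took a large part of the TPM of several of these genes, as they did of nuclear-encoded protein-coding genes at large. Among genes that have such a transcript and reached 5 TPM in each library, the share was 25% or more in both for 3 of 4 genes of the set, namely Gch1, Sdha and Cybb. That compares with 60.4% of 3788 nuclear-encoded protein-coding genes, so the share is not particular to the set. The fourth, Odc1, had 36.6% in replicate 1 and 13.5% in replicate 2. The share was 49.4% and 42.4% for Gch1, 49.1% and 40.3% for Sdha and 47.8% and 39.1% for Cybb, beside medians of 39.3% and 33.0% over the 3788 genes. It was lower in replicate 2 for each of these 4 genes.

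The same share in counts separated these genes. Gch1 kept 55.7% and 48.6% of its counts in a retained-intron transcript, above the medians of 24.6% and 19.6% over the 3788 genes. Cybb had 10.4% and 7.66%, Sdha had 16.2% and 9.12% and Odc1 had 8.49% and 2.69%, all below those medians. Short transcripts weigh more in TPM than in counts, since counts are divided by length. The retained-intron transcript of Gch1 is longer than its coding transcript, whereas those of Cybb are short. That of Gch1, Gch1-202, covers 3476 intronic bases, against 656 for Cybb-202 and 343 for Cybb-203. Whether the intronic reads came from RNA not yet spliced or from a distinct retained-intron transcript was not tested.

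**Figure D3:**
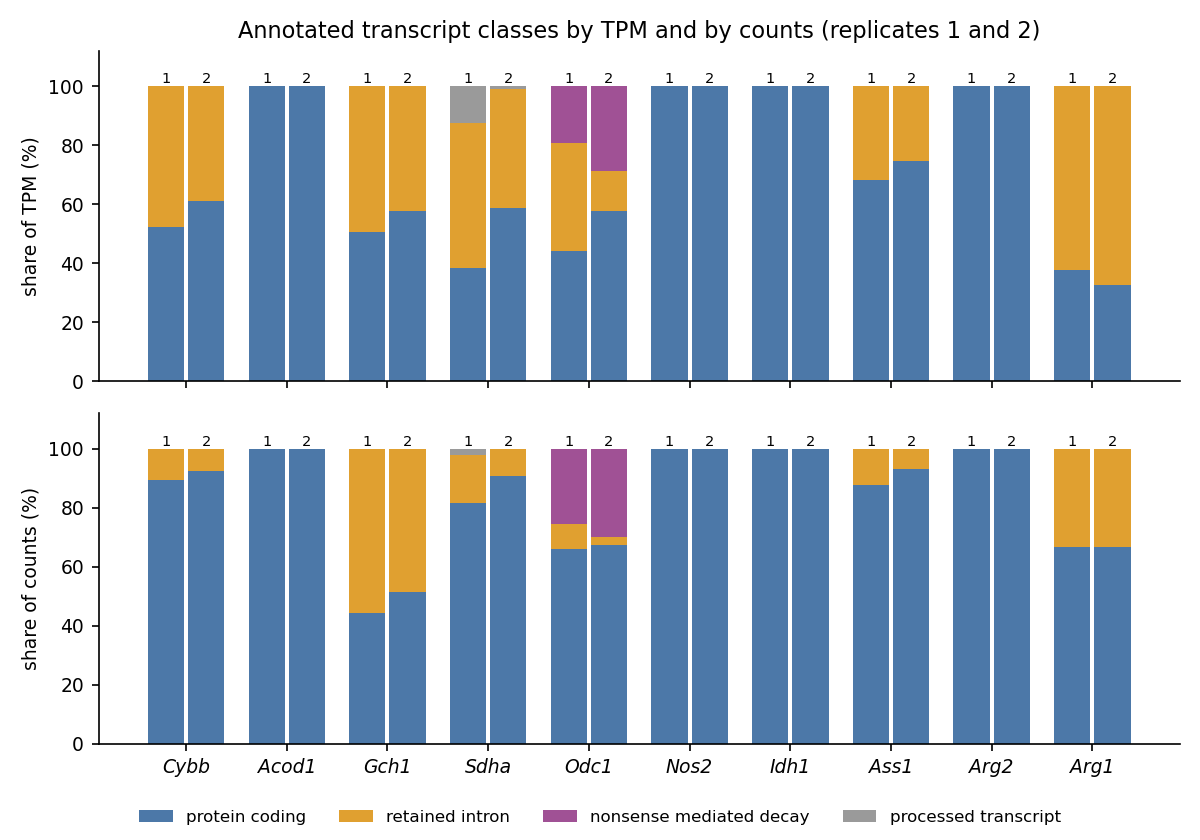
Share of each gene's TPM (upper panel) and counts (lower panel) in transcripts annotated as protein coding, retained intron, nonsense-mediated decay and processed transcript, with a bar for replicate 1 and a bar for replicate 2. In counts, the retained-intron share is above 40% in both libraries for Gch1 and at most 16.2% for Cybb, Sdha and Odc1; Arg1 rests on 12 and 6 counts.

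The transcript Gch1-202 is a single exon of 3508 bases inside the gene. It covers the whole 32-base exon 4 of the coding transcript Gch1-201, 2978 of the 7581 bases of intron 3 and 498 of the 1369 bases of intron 4, so that 99.1% of it is intronic. Gch1-202 had 1126 and 578 counts, and Gch1-201 had 897 and 611. Gch1-202 counts were the higher in replicate 1 and the lower in replicate 2. The sequences below are shown because they are what distinguishes unspliced from spliced Gch1 RNA around that exon. Both are GENCODE M21 transcript sequence, 5′ to 3′ on the minus strand, with exon 4 in capitals. The stretch of Gch1-202 is chr14:47158823-47158934 in mm10, and in Gch1-201 the flanks are exons 3 and 5.
Gch1-202: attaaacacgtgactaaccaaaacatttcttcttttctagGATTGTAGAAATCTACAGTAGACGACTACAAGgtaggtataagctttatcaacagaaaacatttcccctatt
Gch1-201: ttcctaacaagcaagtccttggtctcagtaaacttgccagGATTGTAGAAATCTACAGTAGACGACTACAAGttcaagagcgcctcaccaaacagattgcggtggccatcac

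Cybb had a pair of retained-intron transcripts with high TPM. Cybb-202, of 928 bases, runs 656 bases into intron 3 and had 1167 and 1113 counts, or 116.55 and 73.69 TPM. Cybb-203, of 566 bases, holds 83 bases of intron 6 and 260 of intron 8 and had 340 and 286 counts, or 69.00 and 38.56 TPM. The coding transcript Cybb-201, of 4752 bases, had 12931 and 16859 counts. The sequences below show where each retained-intron transcript leaves the spliced one, 40 bases on each side of the exon end, exon 3 or exon 8 in capitals. They are GENCODE M21 transcript sequence on the minus strand, with Cybb-202 at chrX:9465604-9465683 and Cybb-203 at chrX:9449601-9449680 in mm10.
Cybb-202: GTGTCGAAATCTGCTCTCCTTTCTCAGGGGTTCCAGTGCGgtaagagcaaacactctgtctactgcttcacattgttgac
Cybb-201, exon 3 to exon 4: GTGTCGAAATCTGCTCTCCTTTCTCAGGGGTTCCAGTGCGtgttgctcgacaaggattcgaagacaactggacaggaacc
Cybb-203: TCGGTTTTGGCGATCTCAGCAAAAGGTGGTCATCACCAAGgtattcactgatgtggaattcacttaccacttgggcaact
Cybb-201, exon 8 to exon 9: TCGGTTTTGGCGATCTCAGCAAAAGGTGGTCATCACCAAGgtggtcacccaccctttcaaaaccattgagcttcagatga

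**Figure D4:**
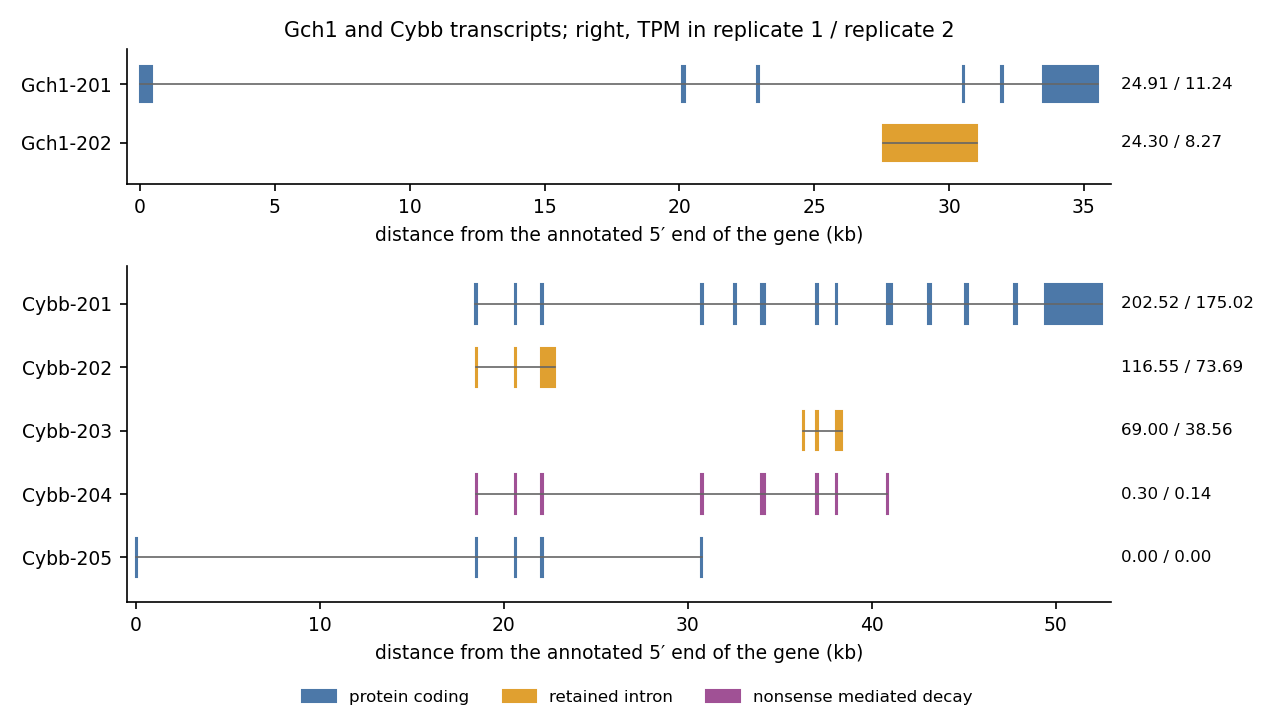
Annotated transcripts of Gch1 and Cybb, drawn 5′ to 3′ by distance in kb from the 5′ end of the gene, with exons as boxes coloured by transcript class and TPM in replicates 1 and 2 at the right. Gch1-202 is a single block over exon 4 and its flanking introns, and Cybb-202 and Cybb-203 extend exons 3 and 8 of Cybb-201 into the next intron.

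Other genes differed in which transcript led. The alignment-based table put all Nos2 counts in Nos2-201, whereas the read-based table put 44.1% and 53.8% of Nos2 TPM there and 43.8% and 38.4% in Nos2-202, a processed transcript of 648 bases. Nos2-202 had 177 and 224 read-based counts, or 7.89% and 6.99% of those of the gene, and begins within intron 2 of Nos2-201. Odc1-201, the coding transcript, led Odc1 with 9.04 and 15.70 TPM. Transcripts of Odc1 annotated for nonsense-mediated decay, the pathway that destroys messages with early stop codons, held 19.4% and 28.9% of its TPM, mostly in Odc1-205 with 3.20 and 7.88 TPM. Idh1-201 held 93.1% and 100% of Idh1 TPM in the alignment-based table and 56.9% and 92.2% in the read-based table. In the read-based table, Sdha was led in replicate 1 by Sdha-207, a processed transcript of 198 bases, whose 11.5 counts gave 9.76 TPM, so that few reads carried a large share. Ass1-201 led Ass1 with 4.88 and 2.79 TPM. For Arg1 the leading transcript was Arg1-201 in replicate 1, with 8 counts, and the retained-intron transcript Arg1-202 in replicate 2, with 1 count.

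For 8 of the 10 genes, no stretch of 50 bases in transcript 201 was found, read in the same direction, in a transcript of another gene. The exceptions were Ass1 and Odc1. Reverse complements were not searched, so sequence shared with opposite-strand genes, as at the Arg2 and Gch1 loci, was not covered. Of the 50-base stretches of Ass1-201, 55.3% were also in the pseudogene Gm5424, which had 0 counts in both libraries. Of those of Odc1-201, 42.2% were also in 15 other genes, all pseudogenes, which together had 58.9 and 50.4 counts. How reads from the stretches shared with Odc1 were divided between the copies was not tested.

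Promoter sequence, placed by the RefSeq transcript start, was at hand from RefSeq (GRCm38.p6, the assembly of mm10) for 7 of the 10 genes, in 8 promoters, and not for Nos2, Arg1 and Arg2. The 250 bases before each start were searched on both strands for motifs of factors of the Tlr4 and macrophage programmes. The interferon-stimulated response element, searched as GAAANNGAAA, was found 3 times before Cybb, at -168 and -124 on the minus strand and at -29 on the plus strand, and in 2.98% of 32536 distinct promoters. The PU box of the macrophage factor Spi1, searched as GAGGAA, was found before Acod1 at -208 and before 1 of 2 Idh1 starts at -148, and in 23.4% of promoters. The sequence TATAAA was found at -28 from the RefSeq start of Acod1, at -188 on the minus strand before Gch1, and in 12.3% of promoters. The kappa B consensus was found before Gch1 at -10 and in 3.92% of promoters. The letters TTGCNNAA, searched for C/EBP factors, were found before Sdha at -224 on the minus strand, and in 9.57% of promoters. The gamma-activated site TTCNNNGAA was found before none of the 7 genes, against 7.04% of promoters. None of these letters were found before Ass1 and Odc1. A match describes the letters only. RefSeq and GENCODE start Cybb-201 and Gch1-201 at the same base, but GENCODE starts Acod1 35 bases upstream of RefSeq, at 103046977 in place of 103047012. The TATAAA match of Acod1 therefore lies inside the GENCODE transcript.

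The promoters below are those of the 3 genes of the set with the highest mean TPM in the gene tables, 5′ to 3′ on the strand of the gene, with every motif match in capitals. In the read-based tables, Sdha and Nos2 were above Gch1. Cybb is chrX:9469325-9469574 on the minus strand, Acod1 is the first 240 of its 250 bases, chr14:103046762-103047001 on the plus strand, and Gch1 is chr14:47189414-47189663 on the minus strand. Capitals mark response elements in Cybb, the PU box and TATAAA in Acod1, and the reverse complement of TATAAA and the kappa B match in Gch1.
Cybb: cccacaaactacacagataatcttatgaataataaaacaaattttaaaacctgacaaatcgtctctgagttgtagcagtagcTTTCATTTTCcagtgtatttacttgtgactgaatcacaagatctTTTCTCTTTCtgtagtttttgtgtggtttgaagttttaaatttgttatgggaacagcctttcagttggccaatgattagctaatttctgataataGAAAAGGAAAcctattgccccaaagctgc
Acod1: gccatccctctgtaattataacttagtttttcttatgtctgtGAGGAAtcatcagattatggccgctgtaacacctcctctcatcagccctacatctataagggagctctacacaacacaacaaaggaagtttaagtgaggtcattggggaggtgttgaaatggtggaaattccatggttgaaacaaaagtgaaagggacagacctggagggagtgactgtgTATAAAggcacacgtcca
Gch1: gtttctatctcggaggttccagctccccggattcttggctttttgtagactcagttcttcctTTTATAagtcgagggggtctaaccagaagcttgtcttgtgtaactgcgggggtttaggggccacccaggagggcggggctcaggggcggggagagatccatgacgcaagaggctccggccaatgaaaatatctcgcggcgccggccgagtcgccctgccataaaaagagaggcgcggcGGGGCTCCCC

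The other genes of the same pathways were read from 5 lists. All 22 genes of the tricarboxylic acid cycle and citrate list reached 1 TPM in both libraries, with a median of 8.46 TPM. Dlst, a subunit of the alpha-ketoglutarate dehydrogenase complex, was highest at 59.58 and 32.78 TPM, followed by the citrate synthase Cs at 28.40 and 17.64 TPM, and Suclg2, a subunit of succinyl-CoA synthetase, was lowest at 2.42 and 1.54 TPM. Acod1, at a mean of 228 TPM, lay above all 22. Sdha was 2.79 and 3.12 times above Sdhb, the iron-sulphur subunit of the same enzyme, by TPM in the gene tables, and 5.52 and 4.63 times in the read-based tables. Over protein-coding transcripts alone, Sdha was at 11.72 and 12.64 TPM in the alignment-based tables, beside 10.95 and 6.91 TPM for all transcripts of Sdhb.

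Of 13 further genes of nitric oxide and tetrahydrobiopterin, 3 reached 1 TPM in both libraries. The highest were Pts, the enzyme after Gch1 in cofactor synthesis, at 7.14 and 7.48 TPM, and Nosip, a nitric oxide synthase interacting protein, at 4.87 and 4.03 TPM. Gch1 was 6.89 and 2.61 times above Pts in the gene tables and 2.86 and 1.58 times in the read-based tables. Of 13 genes of arginine transport, the urea cycle and proline, 6 reached 1 TPM in both. The arginine transporter Slc7a2 led with 25.68 and 13.74 TPM, and Asl, which follows Ass1 in arginine synthesis, had 7.38 and 3.45 TPM, beside 7.16 and 3.73 for Ass1. The urea cycle genes Otc, Cps1 and Nags, and Agmat, had 0 counts in each library, where up to 3 could go unseen.

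Of 13 polyamine genes, 12 reached 1 TPM in both. Sat1, the acetyltransferase that starts polyamine breakdown, led at 532.69 and 291.29 TPM and was 25.9 and 10.7 times above Odc1. Azin1, an inhibitor of the antizymes that bind Odc1, had 54.57 and 28.39 TPM, and the spermidine synthase Srm was lowest at 1.08 and 0.76 TPM. Of 15 NADPH oxidase genes, 8 reached 1 TPM in both, led by the cytosolic subunit Ncf4 at 113.60 and 62.20 TPM and by Cyba, the membrane partner of Cybb, at 73.12 and 101.07 TPM. Cybb, over all its transcripts, was 5.31 and 2.84 times above Cyba in the gene tables and 4.69 and 3.24 times in the read-based tables. Protein-coding Cybb transcripts alone were at 202.52 and 175.02 TPM in the alignment-based tables. The relative log2 ratio was 1.04 for Cyba and 1.47 for the GTPase Rac1, at 17.75 and 33.57 TPM, so both were above 1 in the gene tables. Neither was above 1 in the read-based table, which gave 0.71 for Cyba and 0.14 for Rac1, and TMM gave 0.96 for Rac1. The epithelial oxidase gene Duox2 and the oxidase activator Noxa1 had 0 counts in both.

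**Figure D5:**
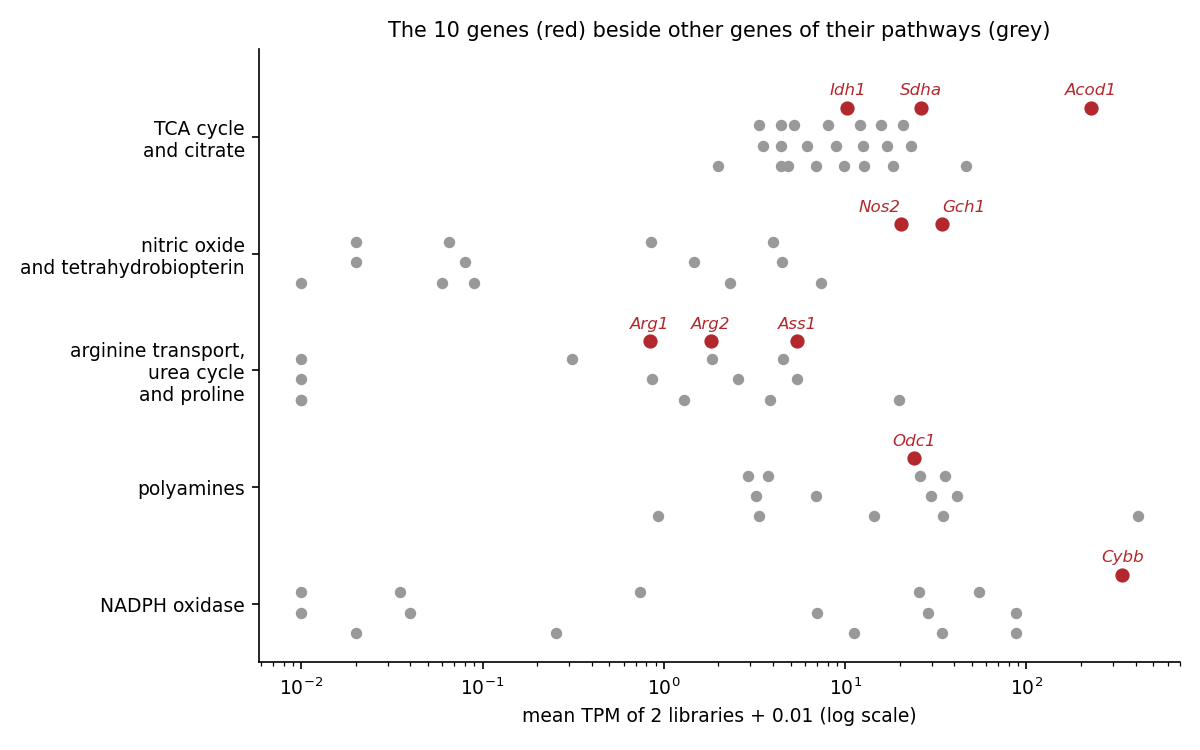
Mean TPM of both libraries, plus 0.01 and on a log scale, of the 10 genes (red, labelled) and of the other genes of their 5 pathway lists (grey). Acod1 and Cybb lie right of every other gene of their lists, Nos2 and Gch1 lie right of theirs, and Odc1 lies left of Sat1.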

How the data were processed

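The labels put both libraries in 1 group, so no test between groups and no p-value was possible. Per the labels' accompanying notes, the authors used mm10 with annotation M21, and made a gene table and a transcript table from an alignment to the transcriptome, and another transcript table directly from reads. For tools and strand setting, nothing is stated in the labels or notes. The authors deposited expected counts, estimated per gene or transcript and at times fractional. Their deposited TPM and FPKM columns are divided by effective length, and FPKM was used only as an alternative. The transcript tables also hold a percent of each gene's TPM, deposited by the authors.

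The 10 genes and all lists were chosen with earlier results of these data known. Genes named are the 10, the 2 highest and the lowest of each pathway list, any gene of those pathway lists with 100 or more counts in both libraries and a relative log2 ratio over 1 in size, Nos1, Nos3, the highest of each marker list and the leading transcripts, with exceptions (Retnla, Ccl17, Ccl22, Cd3d, Sdhb, other stromal markers at 0, and overlapping or pseudogene copies) named after their values were seen. Entries with no linked gene symbol, which held 1.45% and 0.279% of counts, were left out. The libraries were not 1 library deposited under 2 names: a chi-square of their counts over its degrees of freedom was 201. Scaling was tested on simulated data. Counts were rounded for edgeR 4.0.16 and DESeq2 1.42.0 in R 4.3.3. Tables were handled in Python 3.11.15 with scipy 1.17.1, pandas 2.3.3 and numpy 2.4.6, and plots drawn with matplotlib 3.10.9. Poisson intervals cover counting error only.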

Additional observations from a re-analysis of the deposited data

How the results depend on the processing

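No paired analysis was possible because there is 1 group. Of the 10 genes, 9 reached 1 TPM in both libraries, and this number was 7 at a minimum of 5 TPM, 8 in the read-based table and 10 in replicate 1 alone. The median relative log2 ratio of 0.15 lay between -0.15, with no filter on low values, and 0.35, with TMM, so its sign turned in the first, by less than the SD of 0.809 over all genes. The ratios with TMM and with DESeq2 size factors used scaled counts in place of TPM and subtracted no median. Their median over the 12647 genes was 0.03 with TMM and -0.007 with DESeq2 (log2). Mean TPM moved by more than 1 SD for 4 of 10 genes in the read-based table (Acod1 155, Nos2 30.6, Arg2 1.41, Odc1 15.6) and for 3 of 10 over protein-coding transcripts alone (Odc1 12.4, Sdha 12.2, Cybb 189). Gch1 is on neither list because its SD of 21 TPM was wide. Its mean of 34.4 TPM fell to 21.9 in the read-based table and to 18.1 over protein-coding transcripts alone. The share of the leading transcript moved for 5 of 10 genes in the read-based table. The retained-intron share moved for 3 of 6 genes in the read-based table and for 6 of 6 in counts. The Arg1 relative log2 ratio of -0.02 moved to -0.85 with DESeq2 size factors. Depth limits Arg1 and Arg2 most. The alternatives for Cyba and Rac1 were chosen after seeing the data, as were the posterior mean TPM, the protein-coding transcripts alone and the shares of counts.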
